A study of Mus musculus with 4 samples.

Results

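Astrocyte marker genes were examined in RNA-sequencing libraries of tdTomato-positive cells enriched by FACS (fluorescence-activated cell sorting) from the embryonic mouse brain at E16. The list held 37 genes of the 55573 in the count files, and each was matched by its symbol to 1 Ensembl gene of GENCODE M21. The genes are known markers of astrocytes, but the list was put together with the KO against WT comparison of these same libraries in view. Their fold changes, and whether each passed the threshold in the fit across all genes, are therefore given as a description only, and no test was made over the list. WT cells came from *Hmx3-Cre/tdTomato/Dnmt1* wild-type embryos. KO cells came from *Hmx3-Cre/tdTomato/Dnmt1* loxP2 embryos, in which Cre removes exons 4 and 5 of *Dnmt1*, the gene of the maintenance DNA methyltransferase. Both genotypes shared the *Hmx3*-driven Cre, the tdTomato reporter and the C57BL/6J background, and both were collected on embryonic day 16, counted with the day of insemination as the first. The reporter marks every cell with a history of *Hmx3*-driven Cre activity and is not by itself a neuronal marker. Each genotype had 2 libraries, made from cells pooled from 12 WT and 6 KO embryos, and the labels call them biological replicates while the paper calls them technical duplicates. The p-values and SDs thus measure the spread between libraries, which may be technical. The labels give the basal telencephalon as the dissected region and the paper the preoptic area (POA) within it.

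Astrocytes arise from radial glia once neurogenesis declines, and they mature mainly after birth. The transcription factors of the nuclear factor I family open this programme, and the precursors carry genes such as *Slc1a3* and *Mfge8* that radial glia already use. Mature astrocytes take up glutamate and GABA, convert glutamate to glutamine, couple to each other through gap junctions and line the blood vessels with endfeet rich in aquaporin 4. Loss of DNA methylation at astrocyte genes is a known step of the switch from neuron to astrocyte production in neural precursors.

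The libraries held 8075102 to 9995968 counts. CPM denotes counts scaled to library size with TMM factors, on which 3 counts correspond to 0.294 to 0.372 CPM, and TPM denotes the level per exon length, scaled to an equal sum in each library. Log2 fold changes are KO minus WT. The share of mitochondrial rRNA was 8.66% in WT replicate 1, and the other libraries had 1.51% to 2.32%, and its part in the results was not tested. The targeted gene *Dnmt1* had 416 ± 43.4 CPM in WT and 282 ± 1.59 CPM in KO (SD, n = 2), or -0.56 on the log2 scale (adjusted p = 0.0511 in edgeR), and counts over the whole gene include its undeleted exons. *Dnmt1* passed the threshold with DESeq2 (-0.57) and without either WT library (-0.67 and -0.46), and did not pass without KO replicate 1 (edgeR, adjusted p = 0.386), without KO replicate 2 (0.521) or with library size only (0.151). The 8 genes of GABAergic neurons and of the sorted lineage summed to 1294 to 1420 CPM in WT and 1093 to 1205 CPM in KO, with *Gad1*, *Gad2*, *Dlx1* and *Hmx3* present in each library.

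All 37 members passed the expression filter, but 8 of them (*Slco1c1*, *Dio2*, *Gjb6*, *Aqp4*, *Cldn10*, *Ntsr2*, *Itih3* and *Gfap*) did so only through the KO libraries. Together the members made up 0.118% and 0.124% of all counts in the WT libraries and 1.06% and 1.04% in the KO libraries. With edgeR and an adjusted p under 0.05, 35 of the 37 were higher in KO and 0 were lower (also 0 at an unadjusted p under 0.05 and 0 by DESeq2). Of the 16832 tested genes 7.33% were higher and 0.57% lower, 7.9% in all. Nothing is read from this count, since the members were chosen in view of the same comparison. In 36 of the 37 both KO libraries lay above both WT libraries, beside 28.3% of all tested genes, and in 0 both lay below, beside 25.2%. The members' median log2 fold change was 4.32. It stayed at 4.32 with *Gfap*, which had no WT count, set to its lower bound, while that of all tested genes was -0.03. The mean CPM in KO was over 10 times that in WT for 26 members (392 tested genes in all) and over 100 times for 8 members (35 in all), where genes with no WT count were set against 3 counts per library. The members lie on 16 chromosomes, with at most 5 on any of them. In these bulk libraries more astrocyte-like cells and more of these RNAs per cell cannot be told apart.

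**Figure D1:**
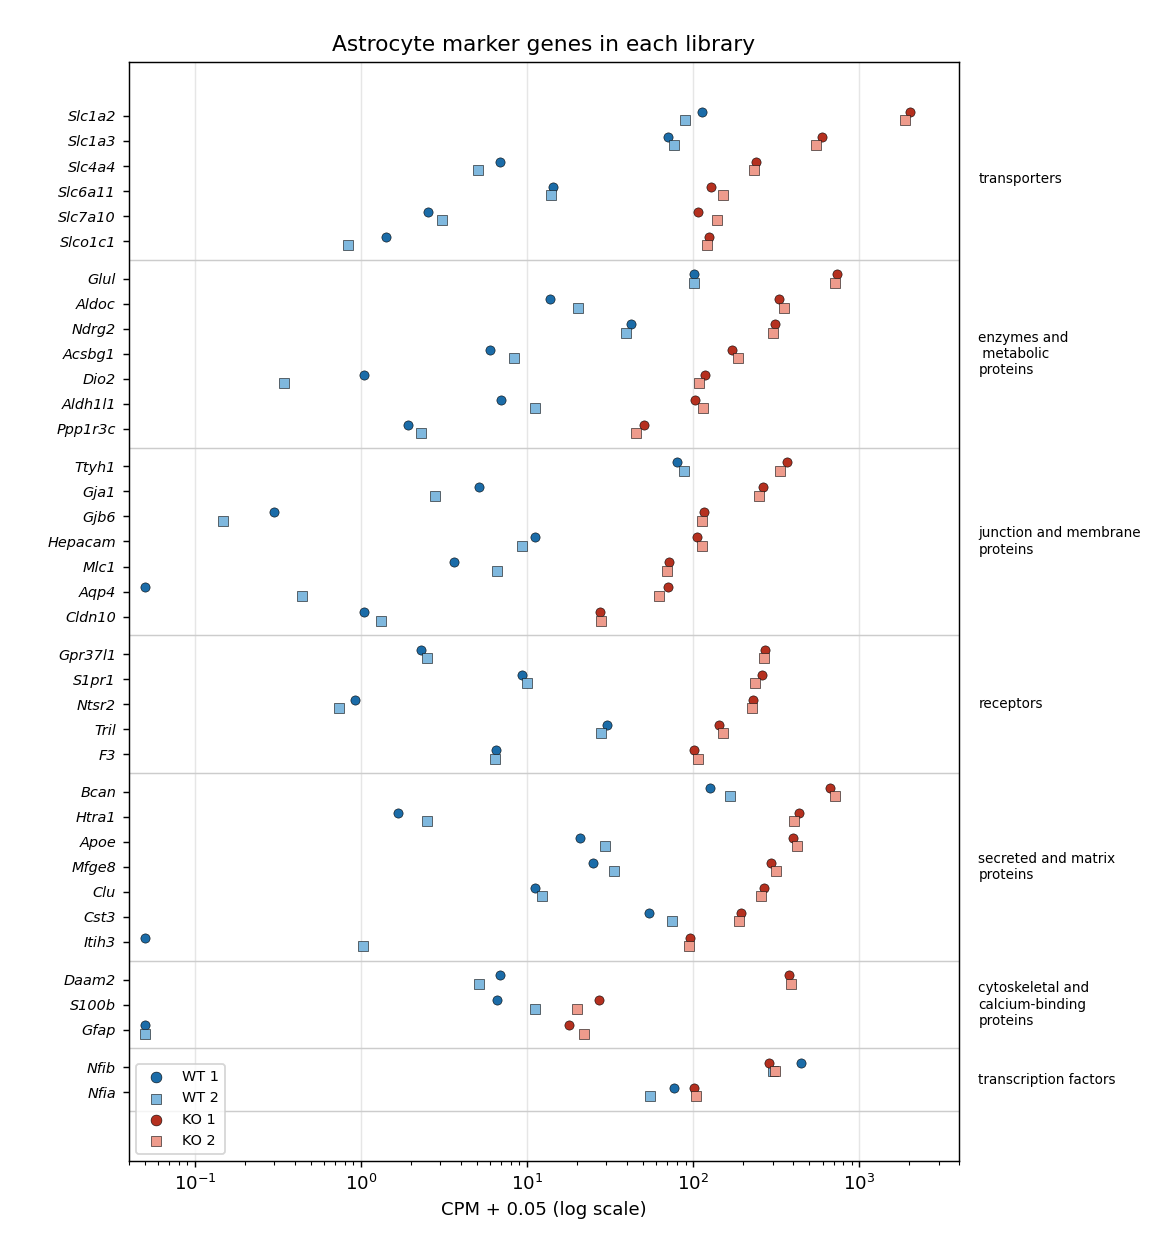
Levels of the 37 astrocyte marker genes in each library, as CPM plus 0.05 on a log axis, with 1 row per gene, genes grouped by role, blue points for the 2 WT and red points for the 2 KO libraries (circles, replicate 1, and squares, replicate 2). The KO points lie to the right of the WT points in every row but that of *Nfib*.

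The number of genes called over the whole table depended on single WT libraries. It was 1329, of which 92.8% were higher in KO, and it became 3878 (66.5% higher) without WT replicate 1 and 4209 (48.2% higher) without WT replicate 2, where the lone WT library is assumed to vary like the KO libraries. After each library was adjusted for how counts vary with length and GC of the genes, 11% of the tested genes were higher and 5.9% lower, so that 65.2% of calls were higher in KO. The members kept their direction in each of the 4 fits that left out 1 library. *Nfib* was lower in KO, by -0.59 on the log2 scale without WT replicate 2.

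Transporters included those for glutamate and GABA, and 6 of 6 were higher in KO. Over all tested genes 7.33% were higher, and the counts by role here and below are not read as a result. *Slc1a2* encodes GLT-1, the main glutamate transporter of mature astrocytes, and had 913 and 914 counts in the WT libraries against 17041 and 16980 in the KO libraries. Its KO libraries exceeded its WT libraries many times over, with 101 ± 16.8 CPM in WT and 1948 ± 110.2 CPM in KO (SD, n = 2) and a log2 fold change of 4.26 ± 0.18 (SE). *Slc1a3* encodes GLAST, the glutamate transporter that radial glia already carry, and had 566 and 781 counts in the WT libraries against 4986 and 4955 in the KO libraries, a log2 fold change of 2.95 ± 0.15 (SE). *Slc6a11*, the GABA transporter GAT-3, had 115 and 142 counts in the WT libraries against 1079 and 1371 in the KO libraries, and only for *S100b*, *Slc7a10* and *Gfap* did the KO libraries stand further apart. The log2 fold change was 3.31 for *Slc6a11* and 5.46 for *Slc7a10*, a carrier of small neutral amino acids. *Slc7a10* had 20 and 31 counts in the WT libraries against 904 and 1261 in the KO libraries. It shares 17.9% of its exonic bases with *Lrp3* on the opposite strand, so that reads there cannot be assigned if strand was ignored. *Slc4a4*, a sodium bicarbonate cotransporter, had 55 and 51 counts in the WT libraries against 2007 and 2110 in the KO libraries. For *Slco1c1*, a carrier of thyroid hormone found in astrocytes and brain endothelium, the values were 11 and 8 counts in the WT libraries against 1044 and 1105 in the KO libraries. The lowest log2 fold change of the 6 transporters was that of *Slc1a3* and the highest that of *Slco1c1* with 6.86. In all of them both KO libraries lay above both WT libraries, as in 28.3% of all tested genes.

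Enzymes and metabolic proteins were higher in KO in 7 of 7 genes. *Glul*, the glutamine synthetase that disposes of the glutamate taken up, was well detected in both genotypes with 813 and 1035 counts in the WT libraries against 6208 and 6451 in the KO libraries, with 101 ± 0.347 CPM in WT and 724 ± 19.5 CPM in KO (SD, n = 2). The log2 fold change of *Glul*, 2.84 ± 0.14 (SE), was the smallest of this group. *Aldoc*, the aldolase of the brain, had 110 and 207 counts in the WT libraries against 2779 and 3181 in the KO libraries (log2 fold change 4.32 ± 0.21 (SE)). The folate enzyme gene *Aldh1l1*, a widely used astrocyte marker, had 56 and 113 counts in the WT libraries against 864 and 1044 in the KO libraries (log2 fold change 3.58 ± 0.23 (SE)), and 11% of its exonic bases are shared with the antisense gene *Gm15756*. *Acsbg1*, an acyl-CoA synthetase, and *Ndrg2*, a member of the N-myc downstream-regulated family, had log2 fold changes of 4.63 and 2.91. *Acsbg1* had 48 and 85 counts in the WT libraries against 1441 and 1684 in the KO libraries, and *Ndrg2* had 340 and 399 counts in the WT libraries against 2616 and 2742 in the KO libraries. In both the groups lay far apart. *Ppp1r3c*, which targets protein phosphatase 1 to glycogen, had 15 and 23 counts in the WT libraries against 424 and 413 in the KO libraries. *Dio2* encodes the deiodinase that activates thyroid hormone and showed the largest change of the group, with 8 and 3 counts in the WT libraries against 991 and 980 in the KO libraries. The log2 fold change of *Dio2* was 7.51 ± 0.32 (SE), and it was 8.51 without WT replicate 1 and 6.80 without WT replicate 2.

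Genes of junctions, water channels and membrane complexes included members that were near the limit of detection in WT. *Gja1* encodes connexin 43, the gap junction protein shared by radial glia and astrocytes, and had 41 and 28 counts in the WT libraries against 2203 and 2244 in the KO libraries. Its partner in mature astrocytes, connexin 30, is encoded by *Gjb6*, which had 2 and 1 counts in the WT libraries against 974 and 1022 in the KO libraries. With 3 counts in all in WT, the depth-scaled ratio of the pooled *Gjb6* counts was 695, with an exact 95% interval of 237 to 3371 that covers counting error only. Aquaporin 4, the water channel of the endfeet, is encoded by *Aqp4*, with 0 and 4 counts in the WT libraries against 591 and 567 in the KO libraries. The log2 fold change was 6.05 ± 0.27 (SE) for *Gja1* and 8.16 ± 0.43 (SE) for *Aqp4*, the latter 7.35 without WT replicate 1 and with no WT count left without WT replicate 2. That of *Gjb6* was 9.32, and 9.99 without WT replicate 1 and 8.75 without WT replicate 2. *Mlc1* and *Hepacam* encode membrane proteins that form a complex at astrocyte junctions, and they had log2 fold changes of 3.76 and 3.43. *Hepacam* had 89 and 94 counts in the WT libraries against 886 and 1019 in the KO libraries. For *Mlc1* the WT libraries differed from each other, with 29 counts in replicate 1 and 67 in replicate 2, and the KO libraries had 597 and 627. *Cldn10*, a claudin, had 8 and 13 counts in the WT libraries against 232 and 252 in the KO libraries. *Ttyh1*, a chloride channel family gene that radial glia also express, had the smallest change of the 7, with 641 and 900 counts in the WT libraries against 3087 and 3011 in the KO libraries and a log2 fold change of 2.06 ± 0.15 (SE).

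Receptors were higher in 5 of 5 genes. *Gpr37l1*, a G protein-coupled receptor of astrocytes, had 2.34 ± 0.152 CPM in WT and 268 ± 2.66 CPM in KO (SD, n = 2). *Ntsr2*, a neurotensin receptor, had 7 and 7 counts in the WT libraries against 1913 and 2048 in the KO libraries, a log2 fold change of 8.18 ± 0.23 (SE). The WT libraries had the same count, and the KO libraries lay close together. *S1pr1* encodes a receptor for sphingosine-1-phosphate that endothelial cells also use, with 75 and 101 counts in the WT libraries against 2180 and 2139 in the KO libraries. *F3*, tissue factor, had 52 and 65 counts in the WT libraries against 848 and 975 in the KO libraries. *Tril*, an accessory protein of Toll-like receptors, had the smallest log2 fold change of the receptors, 2.35 ± 0.15 (SE), with 242 and 283 counts in the WT libraries against 1210 and 1363 in the KO libraries, and 16% of its exonic bases overlap a non-coding gene on the opposite strand.

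Secreted and matrix proteins were higher in 7 of 7 genes, over a wide range. *Htra1*, a secreted serine protease, stood at 2.03 ± 0.591 CPM in WT and 418 ± 22 CPM in KO (SD, n = 2). *Apoe* and *Clu*, the lipid-carrying apolipoproteins of the brain, had log2 fold changes of 4.02 ± 0.20 (SE) and 4.47 ± 0.17 (SE). *Apoe* had 167 and 299 counts in the WT libraries against 3354 and 3799 in the KO libraries, and *Clu* had 90 and 125 counts in the WT libraries against 2227 and 2326 in the KO libraries. *Itih3*, a hyaluronan-binding inhibitor chain, had 0 and 10 counts in the WT libraries against 806 and 852 in the KO libraries, so that its log2 fold change was 7.41 with all libraries and 6.57 without WT replicate 1, and without WT replicate 2 no WT count is left. *Mfge8*, which tags dying cells for uptake, had 200 and 338 counts in the WT libraries against 2481 and 2840 in the KO libraries (log2 fold change 3.39). *Bcan* encodes brevican, a proteoglycan of the brain matrix that oligodendrocyte precursors make as well, and *Cst3* encodes cystatin C, which microglia make in large amounts. Both had the smallest changes of the group, with log2 fold changes of 2.23 ± 0.17 (SE) and 1.56 ± 0.18 (SE). *Bcan* had 1022 and 1692 counts in the WT libraries against 5586 and 6468 in the KO libraries, and *Cst3* had 439 and 762 counts in the WT libraries against 1633 and 1711 in the KO libraries.

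*Gfap* encodes the intermediate filament protein of mature and reactive astrocytes and had 0 and 0 counts in the WT libraries against 149 and 198 in the KO libraries. The KO mean of 19.8 ± 2.89 CPM (SD, n = 2) was at least 59.3-fold higher than WT when 3 counts per library are taken for WT. *S100b*, a calcium-binding protein that oligodendrocyte lineage cells share, had 53 and 113 counts in the WT libraries against 229 and 180 in the KO libraries and a log2 fold change of 1.40 ± 0.31 (SE), the smallest among the called members. *S100b* passed the threshold with 4 libraries but not without KO replicate 1, where its log2 fold change was 1.17. *Daam2*, a formin of Wnt signalling, had 55 and 52 counts in the WT libraries against 3192 and 3544 in the KO libraries.

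The 2 transcription factors stood apart from the other members. *Nfia* and *Nfib*, which drive the onset of gliogenesis and are also expressed in many neurons, did not pass the threshold. *Nfia* had 614 and 557 counts in the WT libraries against 851 and 945 in the KO libraries, or 65.4 ± 15.3 CPM in WT and 103 ± 2.05 CPM in KO (SD, n = 2). Its KO libraries lay above its WT libraries, with a log2 fold change of 0.65 ± 0.18 (SE). *Nfia* passed the threshold with library size or upper quartile scaling, with DESeq2, without a filter, with the replicate number as a block, and after the correction for length and GC content. Without WT replicate 1 its log2 fold change was 0.90 and without WT replicate 2 it was 0.42, and it passed in both, while it did not pass without KO replicate 1 (0.69) or without KO replicate 2 (0.64). *Nfib* had 3597 and 3087 counts in the WT libraries against 2418 and 2829 in the KO libraries, and the KO libraries lay on either side of WT replicate 2 only when scaled, at 287 and 312 CPM against 302 CPM. WT replicate 1 was higher than all of them, at 446 CPM. The log2 fold change of *Nfib* was -0.32 ± 0.19 (SE), and it became -0.59 and passed the threshold as lower in KO without WT replicate 2.

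**Figure D2:**
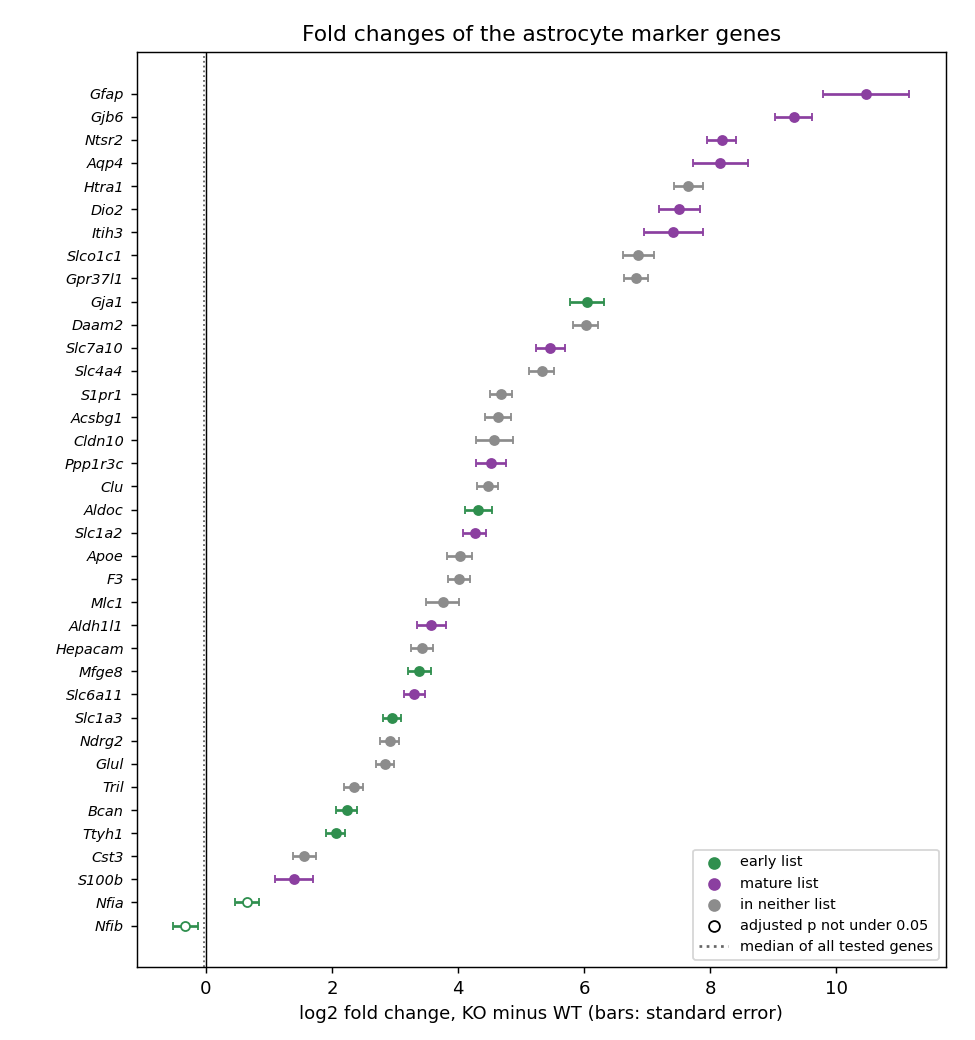
Fitted log2 fold changes (KO minus WT) of the 37 members with standard errors, coloured by the early and mature lists. *Nfia* and *Nfib*, at the bottom and open, did not pass an adjusted p of 0.05, the mature genes *Gjb6*, *Ntsr2* and *Aqp4* are near the top, the place of *Gfap* is not settled because it had no WT count, and the dotted line is the median of all tested genes.

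The members were then compared by the stage at which astrocytes use them. The early list held 8 genes that are active in radial glia or astrocyte precursors before birth (*Slc1a3*, *Gja1*, *Aldoc*, *Ttyh1*, *Bcan*, *Mfge8*, *Nfia* and *Nfib*). The mature list held 12 genes that rise mainly as astrocytes mature (*Slc1a2*, *Aqp4*, *Gjb6*, *Gfap*, *Aldh1l1*, *S100b*, *Ntsr2*, *Slc6a11*, *Slc7a10*, *Itih3*, *Ppp1r3c* and *Dio2*), and 17 members were in neither. Early genes differed by a median of 2.59 on the log2 scale, over a range from -0.32 to 6.05. The mature genes had a median of 6.44, or 5.68 with *Gfap* at its lower bound, and ran from 1.40 (*S100b*) to 9.32 (*Gjb6*) apart from *Gfap*, whose lower bound was 5.89. The threshold was passed by 6 of the 8 early and by 12 of the 12 mature genes, but 6 of the mature genes passed the expression filter only through the KO libraries, and these counts are not set against each other. The ranges overlapped, since *S100b* of the mature list lay below 6 early genes and *Gja1* of the early list lay above 6 mature genes, or 7 with *Gfap* at its bound. Among genes with at least 10 counts in every library, 6 mature genes remained with a median of 3.96, and the 8 early genes had 2.63. The 6 mature genes left out by this filter (*Aqp4*, *Gjb6*, *Gfap*, *Ntsr2*, *Itih3* and *Dio2*) had the largest changes of the mature list. The early list alone holds transcription factors, *Nfia* (0.65 with all libraries) and *Nfib* (-0.32), and they lower its median.

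Levels per length were also given for both lists. The median TPM of the early genes was 20.5 and 26.4 in the WT libraries, at percentiles 62.9 and 65.3 of the tested genes, and 197 and 193 in the KO libraries. For the mature genes the median TPM was 1.29 and 1.8 in WT, at percentiles 9.97 and 13.6, and 78.7 and 85.4 in KO, at percentiles 90.8 and 91.6. The mature median in WT lies between 2 sets of genes. The 6 that passed the expression filter only through the KO libraries had mean WT values from 0 to 0.736 TPM (*Ntsr2*). The other 6 ranged from 2.28 TPM (*Ppp1r3c*) to 22.8 TPM (*Slc1a2*), so the median is no measure of a typical mature gene, and nothing is read from its distance to the early genes.

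By union exon length, the order of the members by level differed between genotypes. In WT the highest mean TPM values were those of *Cst3* (155), *Bcan* (109), *Glul* (91.0) and *Nfib* (73.4). This order was the same in both WT libraries, although the values of *Bcan* and *Glul* in WT replicate 1 were close (83.9 and 81.6 TPM). In KO the order began with *Glul* (719), *Apoe* (631), *Bcan* (559), *Cst3* (499), *Slc1a2* (489) and *Htra1* (479), and *Nfib* was 30th of 37. *Slc1a2* lay above *Htra1* in both KO libraries, while *Cst3* and *Slc1a2* changed places between them. *Htra1* moved from rank 26 in WT to rank 6 in KO, and *Ntsr2* from rank 31 to rank 12. The order depended on the length used. With the length of each gene's longest transcript, *Apoe* (780.0 and 831 TPM) stood above *Glul* (728 and 712 TPM) in the KO libraries, and *Htra1* (585 and 552 TPM) above *Slc1a2* (481 and 451 TPM). In WT, *Nfib* (112 and 91.0 TPM) then lay above *Glul* (82.6 and 99.6 TPM) in replicate 1 and below it in replicate 2. *Gfap* was last in both genotypes by either length, with 15.5 TPM in KO by union exon length, so that the best known astrocyte marker was the least abundant member.

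**Figure D3:**
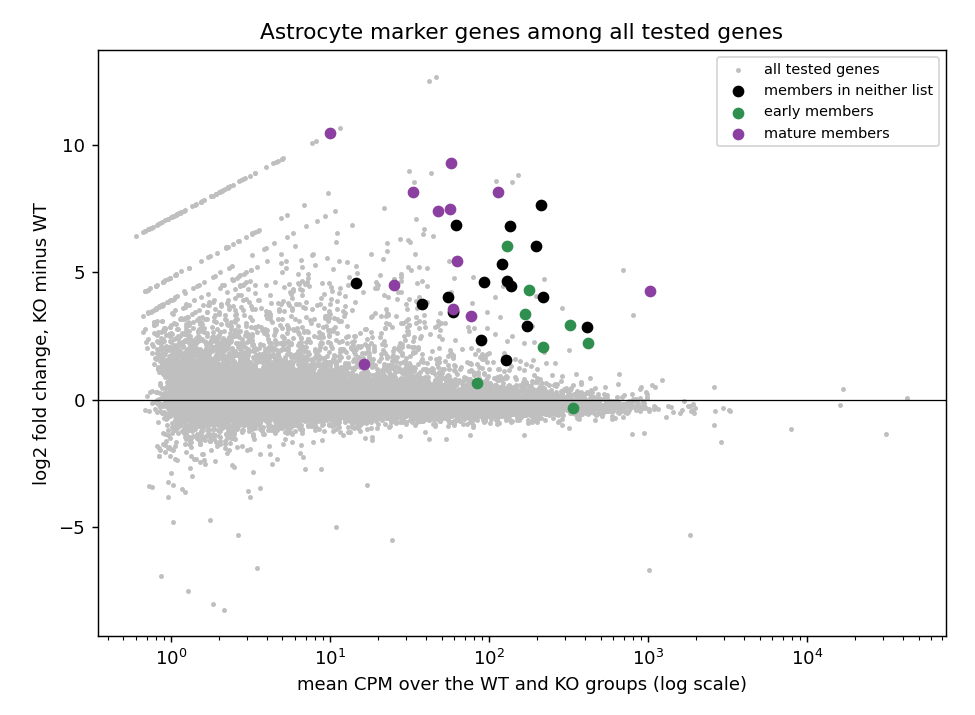
Log2 fold change (KO minus WT) of the 16832 tested genes against their mean CPM (log axis), with the astrocyte members as large points. The members other than *Nfib* lie above 0, and the straight lines of grey points at the upper left are genes with few or no WT counts.

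The KO libraries were closely alike in these genes. Between them the members differed by a median of 0.085 on the log2 scale regardless of direction, with the most extreme ratios of replicate 2 over replicate 1 at -0.46 and 0.37. Over all tested genes the median of that difference was 0.19. Between the WT libraries the 34 members with a count in both differed by a median of 0.40, beside 0.33 over all tested genes. WT replicate 2 was the higher library for 19 of these 34 members, and the ratio to replicate 1 ran from -1.76 for *Dio2* to 0.87 on the log2 scale. By stage list, the members' median percentile among tested genes was 90.8 to 98.0 in the KO libraries and 9.97 to 65.3 in the WT libraries. Ratios vary less at higher counts, so the distance of these medians from those of all tested genes is not read as a trait of the members. In all 35 called members both KO libraries lay above both WT libraries, beside 28.3% of all tested genes. A call as higher with 2 libraries per genotype all but requires this, so nothing is read from it.

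A list of 37 further astrocyte genes outside the members was read from the same fit. In it, 35 genes were higher in KO and 0 were lower by edgeR (0 at an unadjusted p under 0.05 and 0 by DESeq2), and the median log2 fold change was 4.04. The summed level of this list was 693 to 895 CPM in WT and 5629 to 5643 CPM in KO. The largest fitted log2 fold changes were those of *Etnppl*, *Cyp4f15* and *Atp13a4*, which had 0 to 3 WT counts in all, so that their order among the genes with large increases is not settled. *Etnppl*, which encodes a phospholyase of phosphoethanolamine, had 0 and 0 counts in the WT libraries against 799 and 822 in the KO libraries, at least 278-fold higher when 3 counts per library are taken for WT. *Cyp4f15*, a cytochrome P450 gene, had 2 and 0 counts in the WT libraries against 549 and 535 in the KO libraries, and *Atp13a4*, an ion-transporting ATPase gene, had 0 and 3 counts in the WT libraries against 749 and 755 in the KO libraries. *Fgfr3*, a growth factor receptor of astrocyte precursors, differed by 4.06 ± 0.18 (SE) on the log2 scale (edgeR, adjusted p = 6.59e-06). *Grin2c*, a subunit gene of NMDA receptors, had 4 and 8 counts in the WT libraries against 2463 and 2817 in the KO libraries, a 471-fold difference in mean CPM. *Kcnj10*, the potassium channel Kir4.1, differed by 3.32 ± 0.20 (SE) (edgeR, adjusted p = 2.77e-05). *Sox9*, a transcription factor of radial glia and astrocytes, was higher by 0.96 on the log2 scale (SE 0.16, edgeR, adjusted p = 0.00752), with 289 and 314 counts in the WT libraries against 531 and 604 in the KO libraries. The factors *Nfix* and *Zbtb20* did not pass. On the log2 scale *Nfix* differed by 0.30 (edgeR, adjusted p = 0.283) and *Zbtb20* by 0.51 (edgeR, adjusted p = 0.183). *Zbtb20* passed with library size scaling, without a filter, after the correction for length and GC content, and without WT replicate 1 (log2 fold change 0.85), but not with DESeq2 or without any other library. The list was written with the earlier results of these libraries known and is not independent evidence.

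Genes of reactive astrocytes, the state induced by injury and inflammation, were mostly low. Of 15 such genes 7 were tested, and 1 was higher in KO, the complement gene *C4b*, which had 0 and 0 counts in the WT libraries against 64 and 90 in the KO libraries. The median log2 fold change of the tested genes was 0.54. *Lcn2*, a defining marker of this state, had 0 counts in all libraries, and *Serpina3n* had 0 counts in WT and 7 and 13 in KO. In the main fit of all libraries *Osmr* (log2 fold change 1.90) and *S1pr3* (1.07) did not pass. Both passed with all libraries without a filter, with the replicate number as a block, and after the correction for length and GC content, with or without the block. *Osmr* also passed with library size only. Without WT replicate 1 the called genes were *C4b*, *Osmr* and *Serpina3n*, and without WT replicate 2 they were *C4b*, *Osmr*, *S1pr3* and *Vim*.

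Markers of other cells were set beside these values. The 10 radial glia genes, which include *Fabp7*, *Nes*, *Vim* and *Sox2*, differed by a median of 0.55 on the log2 scale, and 1 of them passed (*Hes1*, 1.55), with 7 higher at an unadjusted p under 0.05, 2 by DESeq2, and 9 in which the KO libraries both exceeded the WT libraries. Their summed level was 1467 to 1602 CPM in WT and 1952 to 2040 CPM in KO. The 5 proliferation genes had a median of -0.04 with 0 called by edgeR (1 at an unadjusted p under 0.05, and 0 by DESeq2). Of the 6 oligodendrocyte precursor genes 1 was higher by edgeR (5 at an unadjusted p under 0.05, and 2 by DESeq2), and in all 6 both KO libraries lay above both WT libraries. Their summed level was 1488 to 1558 CPM in WT and 1888 to 1999 CPM in KO. Mature oligodendrocyte genes were higher in 9 of 10, with summed levels of 136 to 162 and 598 to 622 CPM, and *Opalin* was at 0 in both WT libraries. Mural cell genes, of pericytes and vascular smooth muscle, were higher in 6 of 8 (7 by DESeq2), with 53.6 to 61.3 and 380.1 to 381 CPM, and *Acta2* was at 0 in both WT libraries. Of 6 tested endothelial genes 0 passed in edgeR (4 at an unadjusted p under 0.05, and 0 by DESeq2), and the summed level of the 7 genes in the list lay between 16.4 and 19.8 CPM in all libraries. Of 8 tested microglial genes 1 was higher by edgeR (5 at an unadjusted p under 0.05, and 2 by DESeq2), and the 9 genes of the list had summed levels of 30.2 to 38.1 and 64.3 to 64.8 CPM. Choroid plexus and ependymal genes were lower in 1 of 5 tested, *Ttr*, the transthyretin gene of the choroid plexus, which had 329 and 564 counts in the WT libraries against 8 and 10 in the KO libraries (log2 fold change -5.53). The other 4 did not pass, with log2 fold changes of 0.60 for *Kcnj13*, 0.22 for *Foxj1*, 0.20 for *Kl* and -1.0 for *Aqp1*, and the median of the 5 was 0.20. Neuronal genes were lower in 3 of 12 (9 at an unadjusted p under 0.05, and 5 by DESeq2), with a median log2 fold change of -0.56 and summed levels of 6229 to 6781 and 4565 to 4624 CPM. The part of the oligodendrocyte, mural, radial glia and neuronal differences and of *Ttr* in the values of the astrocyte genes was not tested.

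**Figure D4:**
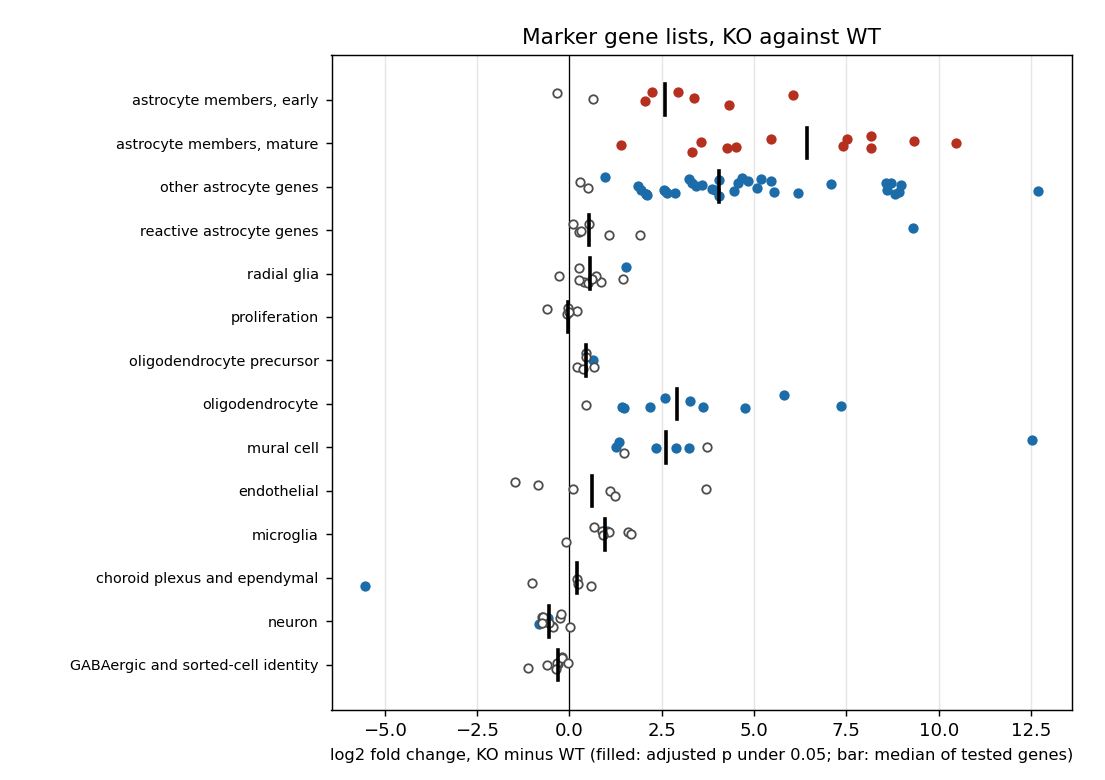
Log2 fold changes (KO minus WT) of the tested genes in each marker list, where filled points passed an adjusted p of 0.05 and the bar is the list's median. Astrocyte, mature oligodendrocyte and mural cell genes extend far to the right, the medians of radial glia (0.55) and oligodendrocyte precursor genes (0.45) lie above 0, that of proliferation genes at -0.04, and that of neuronal genes at -0.56.

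*Dnmt1* maintains methylation at CpG dinucleotides, and the promoters of the members were therefore described by their CpG content. RefSeq promoter windows of 300 bases (250 before and 50 after the transcription start, GRCm38.p6) were matched for 33 of the 37 members, with the first listed start used where a gene had several. The start lay within 1000 bases of a GENCODE transcript start of the counted gene for 32 of them, and that of *Nfia* lay 190791 bases away, so that its window is not near the counted gene. The member windows held a median of 8 CpGs (8.5 without *Nfia*), against 20 in the 11282 windows of tested genes and 7 in all 27025 windows. Few CpGs (5 or fewer) were found in 36.4% of the member windows (34.4% without *Nfia*), in 10.5% of those of tested genes and in 43.6% of all windows. The mature genes had a median of 5 CpGs over 11 windows and the early genes 8 over 7 windows, that of *Nfia* included. Single windows ranged from 1 CpG (*Slc1a2* and *Slco1c1*) to 50 (*Slc4a4*). The 250 bases before the start are shown for *Htra1*, a member with a large change and many CpGs, and for *Gja1*, an early gene with a large change. CpGs are in capitals, both are on the plus strand, and the counts do not show which start was in use.
*Htra1*, chr7:130935953-130936202, 22 CpGs: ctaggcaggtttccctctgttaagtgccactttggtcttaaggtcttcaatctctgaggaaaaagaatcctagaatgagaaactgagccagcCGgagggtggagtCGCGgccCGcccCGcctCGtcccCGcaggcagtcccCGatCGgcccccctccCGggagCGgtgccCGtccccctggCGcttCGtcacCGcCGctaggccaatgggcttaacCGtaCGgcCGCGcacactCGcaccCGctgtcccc
*Gja1*, chr10:56377050-56377299, 6 CpGs: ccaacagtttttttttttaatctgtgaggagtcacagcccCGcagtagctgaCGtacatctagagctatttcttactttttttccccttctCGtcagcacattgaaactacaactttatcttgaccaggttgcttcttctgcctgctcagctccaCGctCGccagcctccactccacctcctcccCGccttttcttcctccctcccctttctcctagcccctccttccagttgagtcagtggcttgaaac

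Letters of known motifs were searched in the same windows on both strands. The full palindrome of nuclear factor I, TTGGC and GCCAA with 5 bases between them, was in 0 of the 33 member windows and in 0.0407% of all windows. Its half-site, TTGGC, was in 48.5% of the member windows, 50.3% of the windows of tested genes and 47% of all windows, and every full palindrome contains it. The STAT motif TTCNNNGAA, named for factors through which cytokines act on *Gfap*, was in 4 member windows (*Acsbg1*, *Gfap*, *Slc1a3* and *Ntsr2*), or 12.1%. It was in 6.71% of the windows of tested genes and 8.47% of all windows. A match describes letters in this window and no binding.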

How the data were processed

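RNA was sequenced from FACS-enriched tdTomato-positive cells at E16, 2 WT and 2 KO libraries, and the deposited files hold raw counts per Ensembl gene that the authors did not normalise. Per the labels, the submitters' processing notes name CASAVA 1.8.2, STAR 2.5.2a and featureCounts 1.5.0-p1 with mm10 and GRCm38. The annotation and the strand setting are not given in the sources used here, so reads of genes that overlap on opposite strands may be mixed. Of 55573 identifiers 55480 matched GENCODE M21 (GRCm38). Genes that passed the filterByExpr function of edgeR (16832) were analysed (edgeR 4.0.16, limma 3.58.1, R 4.3.3). WT and KO were compared by the quasi-likelihood test with TMM factors and no covariate. Adjusted p denotes Benjamini-Hochberg values, and standard errors were derived from the test statistic. CPM used TMM-scaled library sizes, and TPM used union exon lengths.

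The members and all lists were chosen with earlier results of these data known. All members are named, and of the other astrocyte lists the 3 largest called changes in each direction with *Sox9*, *Fgfr3*, *Kcnj10*, *Nfix* and *Zbtb20*. *Hes1*, *Ttr* and the other genes of its list, *Opalin*, *Acta2*, *Lcn2*, *Serpina3n*, *Osmr*, *S1pr3*, *Vim* and *Grin2c* were chosen after seeing their values. Alternatives tried were DESeq2 1.42.0, 3 other scalings, 2 other filters, the replicate number as a block, a loess correction for length and GC of genes, that correction with the block, omission of single libraries, and an adjusted p under 0.01. The test was checked on simulated data of 16316 genes, in which 200 carried a log2 change of 2. There edgeR recovered 100% of them and 6.54% of its calls were false in a single run, above the share of 0.05 that the threshold bounds on average. All simulated libraries had the same spread, and the changed genes were drawn from those with higher mean counts. The check therefore does not cover genes with few WT counts or the wider spread between the WT libraries. Between the WT libraries, the chi-square statistic of the counts was 57.2 per degree of freedom, and between the KO libraries 4.28, both above sampling noise, so that no library was a copy of another. Each was kept as 1 replicate, as the labels give them, and the statistic does not tell technical from biological replicates.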

Additional observations from a re-analysis of the deposited data

How the results depend on the processing

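The direction of each member was the same under every alternative that tested it, which was 29 members with at least 10 counts in every library and 37 under the others. The members that passed the threshold were 35, all higher in KO, and *Nfib* was lower in KO in every fit. Over all genes, 1329 were called. This became 2363 without a filter, 883 with at least 10 counts in every library, 2851 with the length and GC correction, 740 at an adjusted p under 0.01, and 951 to 4209 with a library left out. Same-numbered libraries deviated together with a correlation of 0.137 over genes, but the labels give no other link between them. With the replicate block, 2244 genes were called (72.4% of them higher in KO), *Nfia* passed with a log2 fold change of 0.67, *Zbtb20* with 0.55 and *Dnmt1* with -0.56. With the block and the length and GC correction together 3128 genes were called.

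The median log2 fold change of the members was 3.79 over the 29 members left with at least 10 counts in every library, and 4.33 to 4.53 with a library left out. That of the mature genes was 3.96 under the same filter, 6.54 with library size only, and 5.95 to 6.53 with a library left out. That of the early genes was 2.70 with library size only, and 2.47 to 2.72 with a library left out. Library size scaling moved the median of all genes from -0.03 to 0.08, a like shift. With at least 10 counts in every library, 24 other astrocyte genes were tested and 22 called. Of the reactive genes, where 1 was called, 2 were called with library size only, 4 without a filter, 0 by edgeR at 10 or more counts per library (3 tested, 1 at an unadjusted p under 0.05, and 1 by DESeq2 with all 7 tested), 3 with the replicate block, 3 with the length and GC correction, 4 with both, and 1 to 4 with a library left out. Causes were not tested beyond the number of genes and libraries that an alternative leaves. Depth limits the WT values of *Gfap*, *Gjb6*, *Aqp4*, *Itih3* and *Dio2*, whose fold changes rest on few or no WT counts.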
